A study of Mus musculus with 7 samples.

Results

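The lone CTCF motif sites with Stag2 are places in the mouse liver genome where CTCF was bound at its motif and the cohesin subunit Stag2 was listed, but no peak of the cohesin subunit Rad21 was found. They were chosen by 4 properties of the deposited lists: a location on chromosomes 1 to 19, the authors' class of lone CTCF site (a CTCF site they counted as lacking cohesin), a scored CTCF motif together with the Stag2 flag, and no shared base with any peak of the pooled Rad21 list. This rule selected 3470 of the 52436 sites in the class list (6.62%), or 33.9% of the 10246 autosomal lone sites. The study performed chromatin immunoprecipitation and sequencing (ChIP-seq) on liver of male Crl:CD1(ICR) mice aged 8 weeks, with a CTCF antibody in 4 libraries and a Rad21 antibody in 3 libraries. No treatment or genetic change was listed for these mice. Reads of each factor were pooled before peaks were called, so each site has 1 value per factor, there is no spread between mice, and the depth of each library at a site is unknown. All p-values below compare sites within pooled lists and say nothing about variation between mice.

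CTCF is a zinc finger protein that binds a long, directional DNA motif, and cohesin is a ring complex that extrudes chromatin loops until it is held at bound CTCF. Rad21 closes the ring, and each complex also carries either Stag1 or Stag2, which take part in the contact with CTCF. Top2b is a DNA topoisomerase often found with CTCF and cohesin, especially near active promoters. The flags for Stag1, Stag2 and Top2b mark overlap with peaks of public mouse liver data used by the authors, and these came from other animals and laboratories than the Rad21 peaks. Their columns have no header and were named from the order in the study's own listing.

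The sequences at these sites show how the motif varies from the strongest members to the typical ones. Each was read from the mm9 genome (assembly NCBIM37) in the direction of the motif, 5′ to 3′, and the capitals mark the 19 bases that best matched a CTCF motif learnt from the strongest anchors of topologically associating domains (TADs), with 5 flanking bases on either side in lower case. Positions within the motif are counted from 1 at the first capital. The 5 strongest members with a match on the deposited strand lie upstream of Ptma (chr1:88422041-88422069, minus strand), on chromosome 6 at chr6:115016127-115016155 (minus strand), upstream of Cdk5r1 (chr11:80290318-80290346, minus strand), near Gm2431 (chr7:149441639-149441667, minus strand) and in an intron of Apbb2 (chr5:66717858-66717886, minus strand).
Ptma site: gtgtgTCGCCAGGAGGGGGCGCCCgacac
Chromosome 6 site: tctccTTACCCCTAGAGGGCGGTAgcgag
Cdk5r1 site: cggtgGCGCCTCTAGTGGGCGCGCccatt
Gm2431 site: tctgaAAGCCACACGGTGGCGGTGtgaga
Apbb2 site: cagttCTTCCTGCAGGGGGAGACAcagaa
The 3 members with the highest deposited motif score lie in an intron of Nphp4 (chr4:151865536-151865564, minus strand), within Gm15218, a gene not annotated as protein-coding (chr14:46387676-46387704, plus strand) and between genes on chromosome 8 (chr8:128681825-128681853, plus strand). They show the motif close to its consensus.
Nphp4 site: gcgccTGGCCACCAGGGGGCAGTGaagtc
Gm15218 site: aaataTGACCACCAGGTGGCGCTGgccga
Chromosome 8 site: gaacaTAGCCAGCAGGGGGCGCTAtgtag
Of the 3 members taken at the median CTCF score, those in an untranslated or non-coding exon of Bend6 (chr1:33964479-33964507, minus strand) and between genes near Serpinb13 (chr1:108911263-108911291, plus strand) had a match, and the third, in an intron of Agap1, did not.
Bend6 site: ggaggCCGACGTCAGGGGGCGCCAaggag
Serpinb13 site: tttgcTTGCCACCAGAGGGAGCGCcagtt

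Many members shared the same letters within the motif. A match above the score limit lay on the deposited strand in 3189 of the 3470 members (91.9%). Positions 4 to 14 read CCAGAAGAGGG in 958 of these 3189 (30.0%), the commonest of 693 different letter runs at these positions. The strongest members with these letters, picked after the letters had been seen, lie upstream of Cwf19l2 (chr9:3403531-3403559, plus strand), in an intron of Ghrh (chr2:157164587-157164615, minus strand), which encodes growth hormone releasing hormone, and in an intron of the reticulon gene Rtn2 (chr7:19870313-19870341, plus strand). They are shown so that the shared letters can be seen in place.
Cwf19l2 site: cagacACACCAGAAGAGGGCGTTCaatcc
Ghrh site: cacagAGGCCAGAAGAGGGCGTTGggatg
Rtn2 site: cactgAGACCAGAAGAGGGCATCTgatcc

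The same letters were found at 1387 of 3258 lone motif sites lacking Stag2 (42.6%) and at 2102 of 17036 other CAC motif sites with Stag2 (12.3%), where CAC denotes cohesin together with CTCF. The members thus lay between the sites that lacked both cohesin marks and those that had them. As the letters were chosen from the members themselves, these shares are a description and were not tested. Members with the shared letters had a median CTCF score of 304, close to the 301 of members with other letters, and a higher median motif score (16.4 against 15.1). They carried the Stag1 flag at 33.1% and the Top2b flag at 3.03%, against 43.2% and 10.1% of the members with other letters. With the shared letters Stag1 was also less frequent in lone motif sites lacking Stag2 (3.97 against 8.28%) and in other CAC sites (78.6 against 83.8%). So was Top2b (0.288 against 1.66%, and 18.5 against 58.8%).

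Members with and without the shared letters were compared for repeated sequence. As a measure of repetition, the copies of each 16-base word in the 200 bases around the summit were counted on both strands of the whole genome, and the median over the words was taken. At least 10 copies were found for 51.7% of the 958 members with the shared letters and for 9.28% of the 2231 others. The same contrast was present in lone motif sites lacking Stag2 (70.4 against 13.1%) and in other CAC sites (41.8 against 2.81%). B2 and B3 short interspersed elements of rodents are known to carry CTCF motifs. Repeat annotation was not used here, so the family of these copies was not tested. The 11 letters occurred 72085 times on the autosomes, of which 13.5% lay in a pooled CTCF peak and 4.81% in a pooled Rad21 peak.

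Copies of the shared letters differed in how often they lay in a CTCF peak, by the bases that followed. With 14 letters (positions 4 to 17), CCAGAAGAGGGCAT was the commonest form, at 384 members (12.04%), and 11.9% of its 32157 autosomal copies lay in a CTCF peak. For CCAGAAGAGGGCAC, at 170 members, 41.5% of 3577 copies did. For CCAGAAGAGGGCGC, at 102 members, 66.2% of 1489 copies did, and for CCAGAAGAGGGCGT, at 91 members, 16.5% of 7787 copies did. The form most abundant in the genome was therefore also the most frequent among the members, although a smaller share of its copies was bound than of the other 3. The authors kept reads with a unique position, and the part of mapping in these shares was not tested.

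Lone motif sites with the shared letters had a lower share with the Stag2 flag in each bin of CTCF strength, which is given as a description without a test. All lone motif sites were divided into 5 equal bins by CTCF score, and in the weakest bin the flag was present at 28.6% of 483 sites with the shared letters (95% Wilson interval 24.7 to 32.8%) and at 47.6% of 822 sites with other letters (44.2 to 51.0%). In the strongest bin the shares were 55.4% of 401 sites (50.5 to 60.2%) and 64.7% of 897 sites (61.5 to 67.7%). Within both kinds of site the share was higher in the strongest bin than in the weakest. All intervals in the text cover counting error only.

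**Figure D1:**
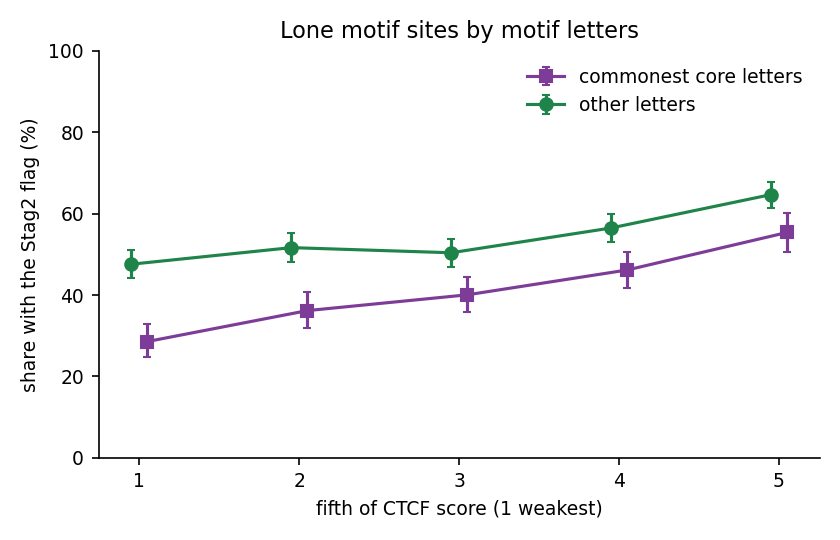
Share of lone motif sites with the Stag2 flag (y axis, percent) in 5 bins of CTCF score (x axis, bin 1 weakest), for sites with the commonest core letters (squares) and with other letters (circles). Bars are 95% Wilson intervals. The squares run from 28.6 to 55.4% and lie below the circles, which run from 47.6 to 64.7%, in all 5 bins.

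The CTCF signal of the members was moderate, with a long upper tail. The CTCF score, the authors' −log10 q-value of the peak multiplied by 10, had a median of 295 (quartiles 187 and 508) and ranged from 38 to 6111. The number of CTCF fragments stacked at the summit, recovered from the deposited fold and p-value, had a median of 60 (quartiles 44 and 88) and ranged from 21 to 795. The deposited fold over local background had a median of 6.72. A score of at least 1000 was reached by 285 members (8.21%), and 974 (28.1%) were under 200.

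Several of the strongest members lay at gene starts. The strongest, on chromosome 14, had a score of 6111 with 609 fragments and lay 21 bp upstream of Ttc5, which encodes a stress-responsive cofactor of p53. It carried the Top2b flag but not the Stag1 flag, its nearest Rad21 peak was 2445 bp away with 26 fragments, and its deposited motif score was low (9.39). The member upstream of Mll1, a histone H3 lysine 4 methyltransferase gene, had a score of 6079 with 646 fragments, lay 192 bp from the gene start, and had a Rad21 peak of 44 fragments only 115 bp away. The member 1237 bp upstream of Ptma, the gene of the nuclear protein prothymosin alpha, had the most fragments of all (795) over a high local background of 87.0, and so a lower score of 4553. The member 213 bp upstream of Cdk5r1, the gene of an activator of the kinase Cdk5, had a score of 3700 with 435 fragments. A Rad21 peak of 70 fragments lay 68 bp from it, and another CTCF peak lay 54 bp from it. The other members among the 5 strongest within 1 kb of a start lay 746 bp upstream of Cwf19l2 (score 2674, 303 fragments, Top2b) and 19 bp inside Pde4d, a cyclic AMP phosphodiesterase gene (score 2106, 311 fragments). A strong CTCF peak without Rad21 could thus lie very close to a Rad21 peak that did not share a base with it.

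The other members among the 10 strongest had scores of 2914 to 4294. They included a site 1200 bp upstream of Dus3l, a tRNA dihydrouridine synthase gene (score 4294, 503 fragments), an intron of Apbb2 (score 3290), an intron of the neuronal transcription factor gene Myt1l (score 3189) and a site upstream of Pik3cd, which encodes a catalytic subunit of phosphoinositide 3-kinase (score 2914). The sequences at Ttc5 and Dus3l scored 7.83 and 8.12 with the learnt motif, under its limit of 8.26, and the match at Mll1 lay on the other strand. No sequence is therefore printed for these. The strongest member with both the Stag1 and the Top2b flag lay between genes near Olfr726, with a score of 2855 and 267 fragments, 201302 bp from the nearest Rad21 peak. The members with the highest motif scores (25.8, 25.4 and 25.3) had CTCF scores of 566, 1336 and 374, all above the members' median of 295.

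Motif score and CTCF score were weakly related across the members (Spearman rho = 0.244 over 3470 sites, all from the same pooled libraries). The coefficient was 0.234 over 3446 lone motif sites lacking Stag2 and 0.385 over 19224 other CAC motif sites with Stag2. The deposited motif score, a log-odds score from FIMO for the best CTCF motif in the peak, had a median of 15.3 (quartiles 12.3 and 17.8) and ranged from 7.77, the lowest in the class list, to 25.8. The motif lay on the plus strand at 50.1% of members. The CTCF summit was within 50 bp of the motif centre at 2697 of 3189 members (84.6%).

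The first comparison asked how members differed from lone motif sites that lacked the Stag2 flag, which were chosen by the same rule except for that flag. There were 3446 such sites. Members had stronger CTCF binding, with a median score of 295 against 244.5, and 60 against 54 fragments at the summit. The size of a difference is given as AUC, the probability that a member exceeds a site of the other set (0.5 for no difference), and the distributions were compared by the two-sided Kolmogorov-Smirnov (KS) test that the study used, with its distance D and p-values adjusted over 16 such tests. For the CTCF score AUC was 0.577 (D = 0.122, adjusted p = 2.36e-22, n = 3470 and 3446), and the score was higher in members on 19 of 19 autosomes. The peaks were also wider, at a median of 360 against 344 bp (AUC 0.562, adjusted p = 8.17e-14, n = 3470 and 3446), with an AUC of 0.532 (0.518 to 0.545) as a mean over 5 bins of CTCF score. The motif score went the other way, with a median of 15.3 in members against 15.5 (AUC 0.472, adjusted p = 1.18e-05, n = 3470 and 3446). It was lower in members on 13 of 19 autosomes. As a mean over the 5 bins its AUC was 0.453 (0.439 to 0.466). The stronger binding of members was thus not accompanied by a stronger motif.

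**Figure D2:**
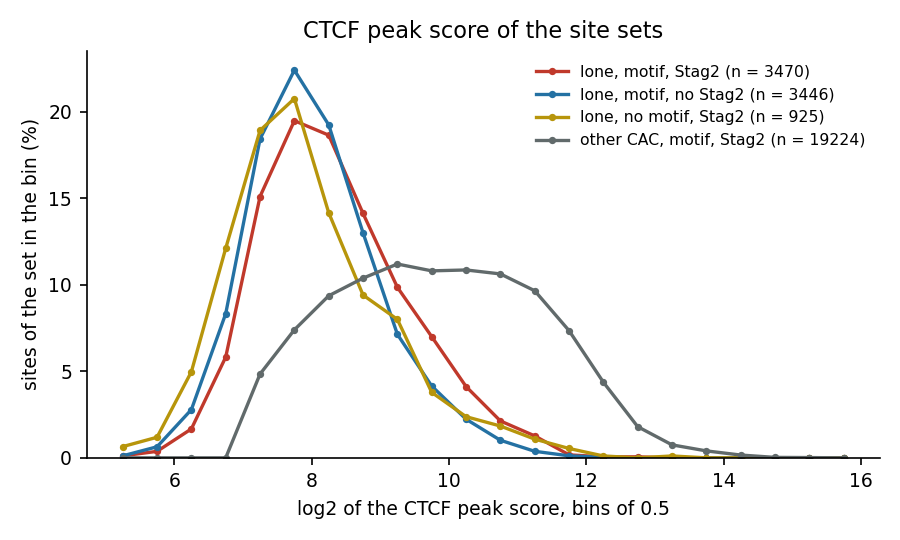
Distribution of the CTCF peak score (x axis, log2, bins of 0.5; y axis, percent of the sites of each set) for lone motif sites with Stag2 (n = 3470), lone motif sites lacking Stag2 (n = 3446), lone sites without motif with Stag2 (n = 925) and other CAC motif sites with Stag2 (n = 19224). The 3 lone sets overlap widely, with medians of 295, 244.5 and 221, while the other CAC sites extend far to the right with a median of 903.

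The marks of cohesin and its partners went together. Stag1 was flagged at 1367 members (39.4%, 37.8 to 41.0%) and at 220 lone motif sites lacking Stag2 (6.38%, 5.62 to 7.25%), a difference of 33.0 percentage points (95% Newcombe interval 31.2 to 34.8). Top2b was flagged at 326 members (9.39%, 8.47 to 10.4%) and at 40 of the sites lacking Stag2 (1.16%), a difference of 8.23 points (7.22 to 9.30). Both shares were higher in members on 19 of 19 autosomes. The difference in Stag1 was 32.3 points (30.5 to 34.2) as a mean over the 5 bins of CTCF score. Stag1 was flagged at 32.6% of members in the weakest bin and at 45.9% in the strongest.

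The presence of the Stag2 flag itself followed CTCF strength. Of the lone motif sites in the weakest bin (scores of 38 to 162) 42.5% had the flag (39.9 to 45.03%), and of those in the strongest bin (512 to 6111) 62.3% did (59.7 to 64.8%). The middle bins had shares of 46.2, 47.4 and 52.7%. Members made up 45% (chromosome 6) to 56.0% (chromosome 14) of the lone motif sites of an autosome.

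Members differed from sites lacking Stag2 in sequence as well. At least 10 copies of the 16-base words were found at 710 members (20.5%) and at 1232 sites lacking Stag2 (35.8%), a difference of −15.3 points (−17.4 to −13.2), with the lower share in members on 19 of 19 autosomes. In the 5 bins of CTCF score it ran from −20.9 points in the weakest bin to −5.92 points in the strongest, where the shares were 19.5 and 25.4%. At least 100 copies were found at 147 members (4.24%) and at 564 sites lacking Stag2 (16.4%). A CpG within the motif match, the dinucleotide whose methylation can hinder CTCF binding, was present at 32.8% of 3189 members and 41.4% of 3258 sites lacking Stag2 (difference −8.57 points, −10.9 to −6.22). Most of it lay at positions 15 and 16, where a CpG was present at 24.6% of members and 34.2% of the sites lacking Stag2.

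GC content within 100 bp of the summit had medians of 47.0% in members and 46.0% in sites lacking Stag2 (AUC 0.541, adjusted p = 9.17e-08, n = 3470 and 3446). Among the 2760 members and 2214 other sites with fewer than 10 copies the call was lost, with AUC 0.501 (adjusted p = 0.992, n = 2760 and 2214). The nearest Rad21 peak was slightly farther from members (median 8022.5 against 7035 bp, AUC 0.521, adjusted p = 0.00242, n = 3470 and 3446), and so was the nearest other CTCF peak (6143.5 against 5471.5 bp, AUC 0.523, adjusted p = 0.00242, n = 3470 and 3446). With fewer than 10 copies neither of these distances passed the test (AUC 0.510 with adjusted p = 0.168 and AUC 0.515 with adjusted p = 0.122, n = 2760 and 2214).

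The second comparison set members against sites that had motif and Stag2 as well as a Rad21 peak, the 19224 other CAC sites, which the authors did not assign to TAD or loop anchors. The motif was no weaker in members, with a median motif score of 15.3 against 14.7 (AUC 0.529, adjusted p = 2.66e-16, n = 3470 and 19224). CTCF binding was much weaker, with a median score of 295 against 903 and 60 against 132 fragments at the summit (AUC 0.210, D = 0.438, with a p too small to be represented). The score was lower in members on 19 of 19 autosomes. The class of other CAC sites began at a CTCF score of 129, below which the authors' list has sites with Rad21 among the lone sites. With only sites of a score of at least 200 in both sets AUC was 0.232. Peaks were narrower in members, at 360 against 470 bp (AUC 0.204, or 0.318 with an interval of 0.298 to 0.338 as a mean over 5 bins of CTCF score).

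The share of motif sites with Stag2 that were lone sites without Rad21 fell with each step of CTCF strength. Over 10 bins of CTCF score across all classes it was 33.6% in the weakest (scores of 38 to 230, 1284 members) and 25.2% in the next, 5.05% in the fifth, and 0.0534% in the strongest (4769 to 47603), where 2 members remained, those at Ttc5 and Mll1. Where a Rad21 peak was present, its median number of fragments rose from 38 to 228 over the same bins, and the lowest Rad21 summit in the whole list held 15. As no lower Rad21 summit was listed, Rad21 too weak to be called and Rad21 that was absent cannot be told apart at the members.

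**Figure D3:**
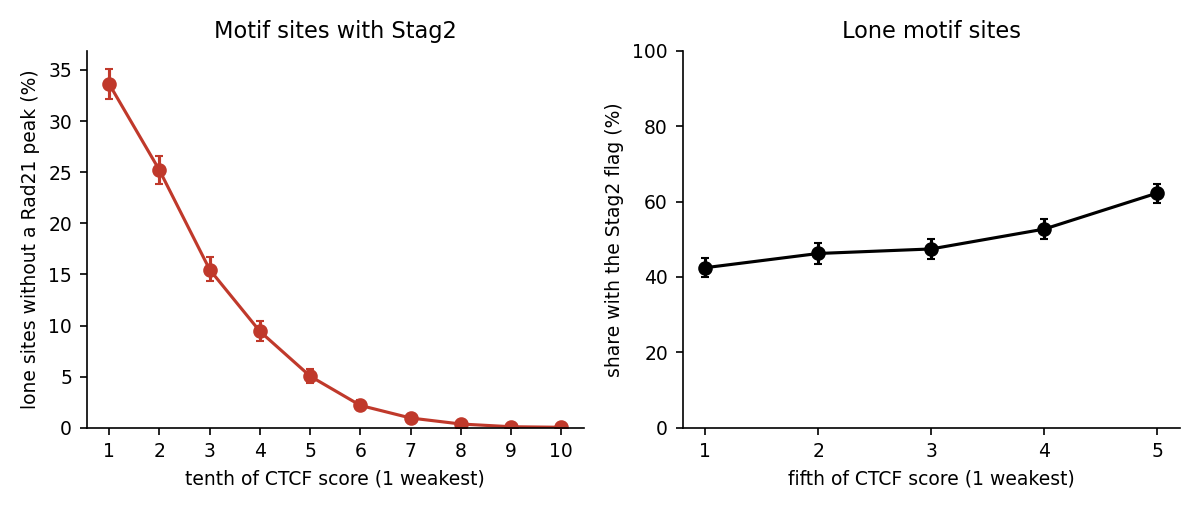
Left, share of motif sites with the Stag2 flag that were lone sites without a Rad21 peak (y axis, percent) in 10 bins of CTCF score (x axis, bin 1 weakest). Right, share of lone motif sites without Rad21 that had the Stag2 flag in 5 bins of CTCF score. Bars are 95% Wilson intervals. The left share falls from 33.6 to 0.0534% and the right share rises from 42.5 to 62.3%.

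At lower CTCF strength, members made up a larger share of the sites with a good motif, but not at the highest strength. Motif sites with Stag2 were divided into 4 equal bins by motif score and 4 unequal bins by CTCF score, which held 3821 sites (scores of 38 to 230), 7496 (231 to 600), 7440 (601 to 1400) and 18697 (1401 to 47603). Members made up 22.1% of the 2000 sites with the weakest CTCF and the weakest motif, and 57.7% of the 194 sites with the weakest CTCF and the strongest motif. In the next bins the shares at the weakest and the strongest motif were 11.8 and 32.4%, and 4.88 and 11.7%. In the strongest CTCF bin, with 49.9% of all these sites, they were 1.23% of 2274 sites with the weakest motif and 0.564% of 7098 with the strongest, so the order was the opposite there. As a mean over 5 bins of CTCF score, the AUC of the motif score against other CAC sites was 0.594 (0.574 to 0.614), with values of 0.432 to 0.662 in the single bins.

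The other CAC sites carried Stag1 and Top2b far more often. Stag1 was flagged at 81.6% of them, a difference of −42.2 points for the members (−43.9 to −40.5), and Top2b at 55.7% (−46.3 points, −47.5 to −45.1). As means over 5 bins of CTCF score these differences were −35.1 points (−38.6 to −31.6) and −42.7 points (−45.3 to −40.0), although the smallest bin held only 44 members. Both shares were lower in members on 19 of 19 autosomes.

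**Figure D4:**
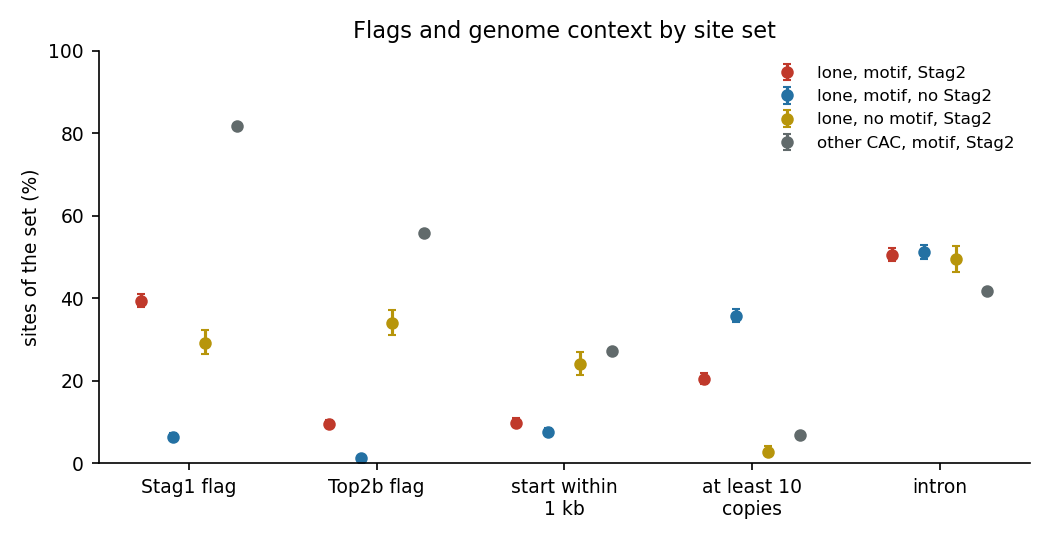
Share of sites (y axis, percent) with the Stag1 flag, the Top2b flag, a protein-coding transcription start within 1 kb, at least 10 copies of the 16-base words, or a summit in an intron, for the 4 site sets named in the key. Points are shares and bars are 95% Wilson intervals. Members lie between the lone sites lacking Stag2 and the other CAC sites for each share, among them Stag1 (39.4% against 6.38 and 81.6%). For introns (50.6% against 51.2 and 41.7%) the intervals of members and of sites lacking Stag2 overlap.

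Position and sequence also differed from those of other CAC sites. A protein-coding transcription start lay within 1 kb of 341 members (9.83%) and of 27.1% of the other CAC sites (−17.3 points, −18.4 to −16.1). GC content had medians of 47.0 and 51.0% (AUC 0.357, adjusted p = 4.95e-136, n = 3470 and 19224). At least 10 copies of the 16-base words were found at 6.81% of the other CAC sites (13.6 points more in members, 12.3 to 15.1), and a CpG in the motif at 44.6% (−11.8 points, −13.6 to −9.99). As means over 5 bins of CTCF score these differences were smaller, at 9.50 points for copies (7.84 to 11.2, with −0.754 to 13.5 in the single bins) and −5.21 points for the CpG (−8.96 to −1.47, with −12.0 to −0.290 in the single bins). The difference in copies was 3.30 points with a limit of 100 copies, and 23.4 points with at least 10 copies of the 16-base words of the motif match and 5 bases either side. A stood at position 8 of the motif in 49.0% of members and 57.6% of sites lacking Stag2, while the commonest base there in other CAC sites was C (35.7%). The base commonest at position 11 was A in members (62.6%) and G in other CAC sites (50.1%). Both positions are part of the shared letters described above. Without the sites that had those letters the commonest base at both positions was the same in members and other CAC sites. It was C at position 8 (33.1 and 40.7%) and G at position 11 (51.8 and 57.1%). Every site removed carried A at both positions, so this change was partly fixed in advance. At position 7, also within the shared letters, the commonest base without these sites was G in members (49.75%) and C in other CAC sites (48.7%).

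The median CTCF summit sat slightly nearer the motif centre in members than in other CAC sites. Measured along the direction of the motif, its median offset was −3 bp in 3189 members and −7 bp in 17036 other CAC sites, where negative values lie upstream of the motif centre (AUC 0.526, adjusted p = 9.30e-08, n = 3189 and 17036). The middle 50% of offsets ran from −20 to 17 bp in members and from −23 to 15 bp in other CAC sites, so the shift was small beside the spread within each set. In 3258 lone motif sites lacking Stag2 the median offset was 1 bp, nearer the centre than in members (middle 50% from −19.75 to 24 bp).

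The third comparison was with lone sites that had Stag2 but no scored motif, of which there were 925. Members had the higher CTCF score, with a median of 295 against 221 (AUC 0.603, adjusted p = 1.76e-17, n = 3470 and 925), and it was higher on 19 of 19 autosomes. The difference was smaller among sites with a score of at least 200 (AUC 0.534, adjusted p = 0.00995, n = 2496 and 520) and with fragments at the summit (AUC 0.560). Stag1 was flagged more often in members (10.2 points, 6.79 to 13.5) and Top2b less often, at 9.39% against 34.1% (−24.7 points, −27.9 to −21.5). A transcription start lay within 1 kb of 24% of the sites without motif (−14.2 points for members, −17.2 to −11.3). Without the sites that had a Rad21 peak within 1 kb this difference was −8.70 points (−11.7 to −5.97). Stag2 without Rad21 thus occurred in settings that differed in Top2b and gene starts by whether a motif was present.

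Members were divided by the other flags they carried. Stag2 was the only flag at 1943 members (56.0%), Stag1 was also present at 1201 (34.6%), Top2b at 160 (4.61%) and both at 166 (4.78%). Members with Stag1 had a median CTCF score of 323, against 276 without it (AUC 0.559, adjusted p = 8.29e-07, n = 1367 and 2103), and AUC was 0.532 among those with a score of at least 200 (adjusted p = 0.0273, n = 1051 and 1445). Their motif score was also higher by the test (median 15.5 against 15.1, AUC 0.527, adjusted p = 0.00914, n = 1367 and 2103), but this call was lost among sites with a CTCF score of at least 200, where AUC was 0.502 (adjusted p = 0.840, n = 1051 and 1445). It was also lost as a mean over 5 bins of CTCF score (AUC 0.516, 0.497 to 0.536) and with the learnt motif score (AUC 0.499, adjusted p = 0.751, n = 1286 and 1929), so no direction is given for it.

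Members with Top2b had the weaker motif. Their median motif score was 12.1, against 15.5 without the flag (AUC 0.323, D = 0.302, adjusted p = 1.01e-23, n = 326 and 3144). Motif scores were lower with the flag on 19 of 19 autosomes. The CTCF score had the lower median with Top2b (268.5 against 295, AUC 0.478, adjusted p = 0.00163, n = 326 and 3144) but the higher mean (496 against 430). It turned round when only scores of at least 200 were kept (AUC 0.574, adjusted p = 0.00374, n = 204 and 2292) and when fragments at the summit were used instead (AUC 0.537, adjusted p = 0.000171, n = 326 and 3144), so no direction is given for it. Of the 160 members with Top2b but not Stag1, 37.5% had a transcription start within 1 kb and 35.0% had a Rad21 peak within 1 kb, against 10.1% and 10.8% of members with neither flag. Members with Stag1 and not Top2b had the largest median distances of the 4 groups from gene starts and from Rad21, with 4.75% near a start and a median distance of 10315 bp to the nearest Rad21 peak.

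**Figure D5:**
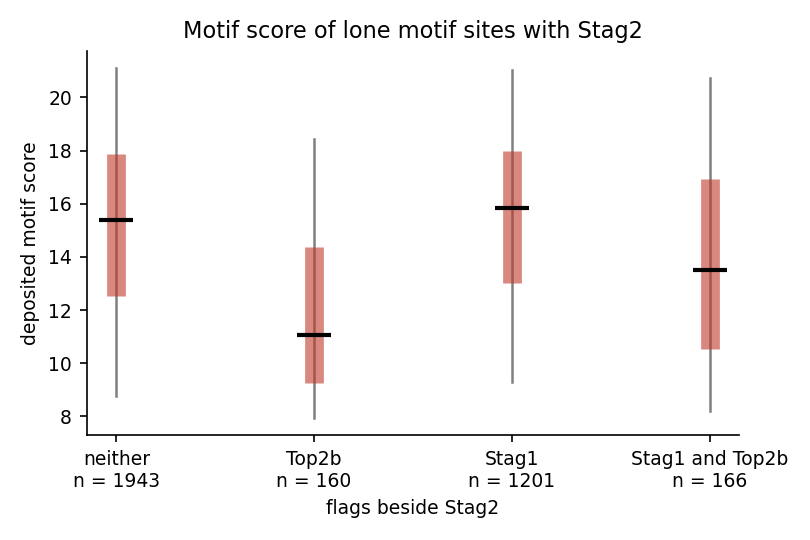
Deposited motif score (y axis) of lone motif sites with Stag2, divided by the other flags (x axis). Black marks are medians, red boxes span the quartiles and grey lines run from the 5th to the 95th percentile. The median is 11.1 with Top2b alone and 13.5 with both flags, against 15.4 with neither and 15.8 with Stag1 alone.

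Members were spread over the genome and mostly lay away from gene starts. Their density ranged from 0.921 per Mb on chromosome 3 to 2.19 per Mb on chromosome 11. Neighbouring members were a median of 314 kb apart, and 100 of 3451 gaps were under 10 kb. The summit lay in an intron at 1755 members (50.6%), between genes at 1390 (40.1%), in an untranslated or non-coding exon at 132 (3.80%), in a coding exon at 109 (3.14%) and in a gene of another type at 84 (2.42%). The intron and intergenic shares of sites lacking Stag2 were 51.2 and 40.3%. The nearest protein-coding start was at a median of 14748.5 bp, and 787 members (22.7%) were over 50 kb from any. A start lay within 1 kb at 2.17 points more members than sites lacking Stag2 (0.835 to 3.50). This difference was 1.34 points without the sites that had a Rad21 peak within 1 kb, and it was lost among sites with fewer than 10 copies (1.54 points, −0.190 to 3.24).

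The nearest Rad21 peak was within 1 kb of 421 members (12.1%), over 1 and up to 10 kb from 1508 (43.5%), over 10 and up to 100 kb from 1328 (38.3%) and over 100 kb from 213 (6.14%). These Rad21 peaks had a median of 48 fragments. At the limit of the rule, the members closest to a Rad21 peak were 11, 12, 12, 15 and 16 bp from it, with CTCF scores of 138, 262, 258, 68 and 193. The lone motif sites with Stag2 that just missed the rule shared 32, 32, 53, 93 and 94 bp with a Rad21 peak and had CTCF scores of 77, 100, 103, 83 and 96. In all, 557 of 4027 autosomal lone motif sites with Stag2 overlapped a Rad21 peak, with scores of at most 129.

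A member lay in or within 10 kb of 2800 of 21418 autosomal protein-coding genes (13.1%), and longer genes had more room for one. The gene models with the most members were Gm20388 (4435 kb) with 14, Fgfr2, a fibroblast growth factor receptor (3009 kb in this annotation), with 9, and Tmcc3 (279 kb) and Rbms3 (1057 kb) with 5 each. Tiam1, which encodes an activator of the GTPase Rac, had 4 in 356.7 kb, as did Fry (379.1 kb), Eif4e3 (409.3 kb) and Accn1 (1088 kb). The relation of number to length over all genes was not tested. Gene lists for liver were then counted in the same way, with no test.

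Members were found at genes of the urea cycle, of lipid synthesis and of the clock. Of 15 genes of gluconeogenesis and the urea cycle 6 had one (40%, median gene length 23.5 kb), among them Ass1 (argininosuccinate synthase; intron, score 1766, 345 fragments, Stag1), Asl (argininosuccinate lyase; intron, score 817) and the glucose transporter gene Slc2a2 (intron, score 570). Of 33 genes of cholesterol and fatty acid synthesis 10 did (30.3%, median length 25.6 kb), including both acetyl-CoA carboxylase genes, Acaca (score 1312, Stag1) and Acacb (score 1066, motif score 23.8). Of 18 circadian clock genes 6 did (33.3%, median length 32.7 kb), led by Per3 (score 501, Top2b, 160 bp from a Rad21 peak), Rora (score 498) and Npas2 (score 469). Of 57 phase II conjugation genes 11 did (19.3%, median length 17.4 kb), but 9 of these are overlapping Ugt1a gene models that share the same strongest member (score 1089, motif score 21.1). The others were Ugt3a2 (score 364) and Gstt2 (score 296). These shares stand beside 13.1% and a median length of 15.5 kb over all protein-coding genes, and the part of gene length in them was not tested.

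Hepatocyte transcription factor genes (median length 25.3 kb) had a member at 3 of 24 (12.5%), in an intron of Ppara (score 1550) and near Cebpa (score 457) and Gata4 (score 154). Secreted liver protein genes (median length 11.1 kb) had one at 4 of 33 (12.1%), among them Plg (score 316), C3 (score 196) and Hpx (score 173). Both shares were close to the 13.1% over all protein-coding genes. Among 15 genes of CTCF and cohesin themselves, with a median length of 45.4 kb, 4 had one (26.7%), among them Smc3 (intron, score 583), Top2b (score 458) and Rad21 (score 300). The members near Top2b and near Rad21 both carried the Top2b flag and lay 416 and 203 bp from a Rad21 peak. Imprinted genes had one at 6 of 32 (18.8%), led by Mkrn3 (score 2803, 311 fragments), Ube3a (intron, score 1062, with Stag1 and Top2b) and Magel2 (score 612, Stag1).

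The remaining lists were gene families, many of them in clusters. None of the 40 Hox genes had a member within 10 kb, and the olfactory receptor genes had one at 14 of 1092 (1.28%), led by Olfr47 (score 1260). The median olfactory receptor gene model was 0.9605 kb long and the median Hox gene model 4.08 kb. Median lengths were 21.1 kb for the cytochrome P450, 14.5 kb for the zinc finger protein and 3.51 kb for the clustered protocadherin genes that follow. They were 7.27 kb for keratin genes and 0.421 kb for immunoglobulin heavy chain segments. Cytochrome P450 genes had one at 6 of 91 (6.59%), with the strongest near Cyp1a1 (score 1589, 214 fragments), followed by Cyp2c44 (score 571) and Cyp39a1 (score 305). Zinc finger protein genes had one at 30 of 385 (7.79%), led by Zfp536 (score 2250), Zfp677 (score 1335) and Zfp395 (score 984). Clustered protocadherin genes had one at 6 of 25 (24%), but several of these genes share the same member. Keratin genes had one at 2 of 46 (4.35%), near Krt80 (score 269) and Krt4 (score 146), and immunoglobulin heavy chain segments at 1 of 37 (2.70%), Ighv11-2 (score 623). Over all protein-coding genes the share was 13.1% and the median length 15.5 kb, and of these families only the protocadherins had a higher share. Members are shared between neighbouring genes, so these counts are not independent.

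Short motifs of liver transcription factors were looked for within 150 bp of the summit on both strands. The C/EBP letters TTGCNNAA were present at 11.3% of members, 8.12% of lone motif sites lacking Stag2 and 10.4% of other CAC sites, beside 10.8% of windows of the same length 2 kb upstream of the members. The nuclear factor I letters TTGGCA were present at 13.2, 9.81 and 12.9% of these 3 sets and at 14.01% of the upstream windows. FOXA letters (TGTTTAC) were at 3.63, 3.51 and 3.51%, and AP-1 letters (TGANTCA) at 9.08, 8.71 and 7.42%. HNF4A letters (CAAAGTCCA) were at 0.576, 0.261 and 0.447%, and E-box letters (CACGTG) at 4.93, 4.59 and 5.31%. NRF1 letters (GCGCATGC) were at 0.490, 0.929 and 1.07%, and at 0.692% of the upstream windows. The ETS letters CCGGAAG were less frequent in members (1.56%) and in sites lacking Stag2 (1.80%) than in other CAC sites (4.23%). Over all autosomal sites of the class list the shares were 10.8% for C/EBP, 13.7% for the nuclear factor I letters, 3.67% for FOXA and 3.97% for ETS. They were 7.45% for AP-1, 0.551% for HNF4A, 5.32% for E-box and 1.14% for NRF1 letters. These matches are letters in a window, and the members differed little from their own upstream sequence.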

How the data were processed

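The deposited files were pooled lists of CTCF and Rad21 peaks and a class list of CTCF sites. The authors merged the reads of each factor, mapped them to mm9 with Bowtie2, kept uniquely mapped reads and called peaks with MACS2. The deposited score is 10 times −log10 of the q-value, the deposited fold is a ratio of summit to local background with a pseudocount, and the deposited −log10 p is that of the summit. The motif score was computed by the authors with FIMO. Fragments at the summit were recovered from fold and p here, and were whole within 0.02 at 99.996% of CTCF peaks. Sequences came from NCBIM37 and genes from GENCODE vM1, an annotation of that assembly. All 52436 class-list sites matched a pooled CTCF peak. A 19-base motif was learnt from 1000 TAD anchors on odd-numbered autosomes, with a limit at a tail probability of 0.0001 per position, and on even-numbered autosomes 98.8% of 17841 matches lay on the deposited strand. Sets were compared by the KS test with Benjamini-Hochberg adjustment over 16 tests, and by Newcombe intervals for 13 differences of shares. All calculations used Python 3.11.15, SciPy 1.17.1, pandas 2.3.3 and Numba 0.67.0, with samtools 1.23.1 to index the genome, and passed 8 checks on simulated data.

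Named sites were the 10 with the highest CTCF score, 3 with the highest motif score, 3 at the median, the strongest with each flag combination, the 5 strongest within 1 kb of a start, the genes holding most members and up to 3 genes per list. Fry, Eif4e3 and Accn1, tied with Tiam1, and Ugt3a2 and Gstt2 were named after their values were seen. A gene that this rule names is not reported here. Members, lists and tests were chosen with earlier results of these data known. Alternatives were a CTCF score of at least 200, no Rad21 peak within 1 kb, even-numbered autosomes, other measures of strength, motif and GC content, other start distances, and means over CTCF score bins. Analysis of sites with fewer than 10 copies, a limit of 100 copies and the 16-base words of the motif match were added after seeing the data.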

Additional observations from a re-analysis of the deposited data

Results flagged for a closer look

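Chromosome X was outside the rule. The same properties selected 130 sites there, of 231 lone motif sites without Rad21, so that 56.3% had the Stag2 flag (49.8 to 62.5%, 95% Wilson interval), beside 50.2% of 6916 such sites on the autosomes. These 130 sites were picked by the same properties as the members, so their motif and Stag2 flag are fixed by the choice, and they are given only because the comparisons left this chromosome out. Their median CTCF score was 384, Stag1 was flagged at 38.5%, Top2b at 10%, and 18.5% had at least 10 copies of the 16-base words.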

How the results depend on the processing

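All 29 results passed their threshold, and of 170 values under alternatives 159 kept their direction and their side of it. The other 11 fell on 6 results. For the motif score of members with Stag1 against those without, AUC was 0.502 at CTCF scores of at least 200, 0.499 with the learnt motif score (the direction turned) and 0.516 as a mean over 5 bins of CTCF score. For the CTCF score of members with Top2b against those without, it turned to 0.574 at scores of at least 200, 0.517 on even-numbered autosomes and 0.537 with fragments at the summit. Against lone motif sites lacking Stag2, the difference in the share near a transcription start lost its call on even-numbered autosomes (1.65 points) and with fewer than 10 copies (1.54 points). With fewer than 10 copies, AUC was 0.501 for GC content, 0.510 for the distance to Rad21 and 0.515 for the distance to the nearest other CTCF peak. That setting and the even-numbered autosomes leave fewer sites, and the cause of these changes was not tested. Repeats marked in the reference were planned as a measure but not run, because the assembly used here carries no such marks. No paired analysis was possible because the pooled lists used here hold no values for single libraries, and for the same reason no library was left out. Reads of single libraries were not used here. Rad21 depth limits the absence of a peak, which cannot be told apart from a weak one.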
